A study of Mus musculus with 23 samples.

Results

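Many mouse genes have no name but Zfp, for zinc finger protein, and a number. Of the 333 symbols of this form in the expression table, 330 were considered, since 3 symbols, Zfp42 and Zfp57 among them, were left out by rule. The 205 genes described here are those of the 330 with at least 5 FPKM (fragments mapped to a gene, scaled to transcript length and to all mapped fragments) in at least 1 of 8 groups of cells. The other 125 stayed below that floor in every group, and 29 of these were below 1 FPKM throughout. The members were thus chosen by the highest of each gene's 8 FPKM values, and no value below is independent of that choice, so every level and ratio is given as a description. Just inside the floor were Zfp748, whose highest value was 5.00 FPKM (in vitro secondary follicle oocytes), and Zfp704 with 5.02 FPKM in ES cells. Just outside were Zfp599 with 4.92 FPKM in ES cells and Zfp938 with 4.85 FPKM in in vitro secondary follicle oocytes.

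Most of these proteins carry C2H2 zinc fingers, small folds in which a pair of cysteines and a pair of histidines hold a zinc ion so that the finger can read a few bases of DNA. Many also carry a KRAB box near their start, which binds the corepressor TRIM28. TRIM28 brings in histone methyltransferases and heterochromatin proteins, and KRAB zinc finger proteins are best known for silencing retroelements and guarding imprinted genes in embryonic stem cells and early embryos. A minority are unlike the rest: Zfp36 has CCCH fingers that bind AU-rich messenger RNA, Zfp598 is a ubiquitin ligase of collided ribosomes, and Zfp622 acts in making the large ribosomal subunit.

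The samples follow the making of mouse oocytes, with 8 groups and 23 samples whose poly(A) RNA was read by sequencing. The culture route, of strain C57BL/6 X 129, began with female embryonic stem (ES) cells in 2i+LIF medium. From them came primordial germ cell-like cells (PGCLCs) after 6 days of induction, and reaggregated PGCLCs held for 3 days with somatic cells of female E12.5 gonads. Oocytes of secondary follicles were taken from such reaggregates at 21 days (in vitro secondary follicle oocytes), and oocytes arrested at metaphase of the second meiotic division, called MII, after 11 more days of follicle growth and 16 hours of maturation (in vitro MII oocytes). The animal route, of strain B6D2F1, comprised E12.5 primordial germ cells (PGCs) and secondary follicle oocytes of ovaries at 8 days after birth, both sorted with BVSC transgenes, and MII oocytes of females aged 8 weeks. Strain and route cannot be told apart. The table gives 1 FPKM value per gene and group, although 7 groups had 3 samples and day 6 PGCLCs had 2. No replicate spread, standard error or p-value can therefore be given, and the depth behind each value is unknown. The MII oocyte libraries were made from 99 to 134 oocytes, against 337 to 812 for secondary follicle oocytes and 5300 to 15000 cells for reaggregated PGCLCs.

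The groups carried markers of their labels, but not every marker was confined to its stage. Nanog, a pluripotency factor, stood at 253 FPKM in ES cells and at no more than 0.24 FPKM in any oocyte group. The other pluripotency markers were also highest in ES cells but remained in oocytes. Pou5f1 had 197 to 233 FPKM in the oocyte groups. Esrrb had 52.6 and 47.0 FPKM in in vitro and in vivo secondary follicle oocytes, and Klf4 had 15.2 and 13.9 FPKM in in vitro and in vivo MII oocytes. Dppa3, a germ cell factor, had 228 FPKM in day 6 PGCLCs, against 17.2 FPKM in ES cells. Prdm1, Ddx4 and Dazl were also higher there, with 39.8, 13.1 and 30.1 FPKM against 4.31, 0.812 and 7.86 FPKM. Stra8 was not, with 0 FPKM against 0.267 FPKM, and had 66.7 and 63.6 FPKM in reaggregated PGCLCs and E12.5 PGCs. In the oocyte groups Stra8 had at most 0.0247 FPKM. Zp3, of the oocyte coat, had 5094 and 5544 FPKM in in vitro and in vivo secondary follicle oocytes, against at most 6.18 FPKM in the 4 groups before. In in vitro and in vivo MII oocytes Zp3 had 739 and 79.8 FPKM. Figla, another oocyte marker, had 65.3 and 117 FPKM in in vitro and in vivo secondary follicle oocytes. It had 4.37 and 1.76 FPKM in in vitro and in vivo MII oocytes, against 2.585 FPKM in E12.5 PGCs. Of 6 markers of granulosa cells and stroma, Amh, Foxl2, Fshr, Col3a1 and Wt1 had at most 2.42 FPKM anywhere. Gata4 was the exception, with 76.7 and 64.8 FPKM in in vitro and in vivo MII oocytes, and its part in the values below was not tested.

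A finger and a set of promoters show what these genes have in common and where they differ. First comes a finger, given as the coding sequence of Zfp568, since it is the unit by which the family is recognised. The stretch covers 26 codons, positions 1786 to 1863 of the GENCODE M21 transcript, on the plus strand of chromosome 7. The capitals mark the codons of the cysteine pair and the histidine pair, and 3 stretches of this exact spacing and linker were found in the transcript.
Zfp568 finger: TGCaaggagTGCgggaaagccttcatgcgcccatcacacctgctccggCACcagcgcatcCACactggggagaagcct

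The promoters were taken from RefSeq (GRCm38.p6) as 300 bases around the start that RefSeq gives each gene, with each CG in capitals (CG reads the same on both strands). The first 3 belong to genes that were close to 0 FPKM in ES cells, PGCLCs and PGCs and high in MII oocytes, and the last to Zfp207, which was high in all groups. All 4 were chosen after their values were seen. The promoter given for Zfp616 lies upstream of the start that GENCODE M21 gives the gene (chr11:74069955), and its CG ratio is that of the RefSeq window. At least 1 CG is found in 94.6% of the 32851 promoters of that table.
Zfp957, chr14:79247318-79247617, minus strand: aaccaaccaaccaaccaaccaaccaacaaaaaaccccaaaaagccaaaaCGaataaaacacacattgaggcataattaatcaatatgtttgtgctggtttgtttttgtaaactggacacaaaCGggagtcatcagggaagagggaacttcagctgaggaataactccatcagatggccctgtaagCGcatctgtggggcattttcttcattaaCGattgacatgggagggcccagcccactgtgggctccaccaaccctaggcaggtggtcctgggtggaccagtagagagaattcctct
Zfp735, chr11:73688528-73688827, plus strand: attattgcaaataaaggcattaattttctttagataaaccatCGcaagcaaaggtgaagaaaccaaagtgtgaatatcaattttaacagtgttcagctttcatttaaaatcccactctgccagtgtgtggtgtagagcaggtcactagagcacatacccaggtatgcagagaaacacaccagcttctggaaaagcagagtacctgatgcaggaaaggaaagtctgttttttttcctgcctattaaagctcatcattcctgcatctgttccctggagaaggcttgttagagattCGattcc
Zfp616, chr11:74060647-74060946, plus strand: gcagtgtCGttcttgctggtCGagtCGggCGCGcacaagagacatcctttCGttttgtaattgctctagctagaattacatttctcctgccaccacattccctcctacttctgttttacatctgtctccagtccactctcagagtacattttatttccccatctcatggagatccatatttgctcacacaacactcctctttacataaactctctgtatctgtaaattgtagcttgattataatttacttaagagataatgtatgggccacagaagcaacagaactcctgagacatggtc
Zfp207, chr11:80383029-80383328, plus strand: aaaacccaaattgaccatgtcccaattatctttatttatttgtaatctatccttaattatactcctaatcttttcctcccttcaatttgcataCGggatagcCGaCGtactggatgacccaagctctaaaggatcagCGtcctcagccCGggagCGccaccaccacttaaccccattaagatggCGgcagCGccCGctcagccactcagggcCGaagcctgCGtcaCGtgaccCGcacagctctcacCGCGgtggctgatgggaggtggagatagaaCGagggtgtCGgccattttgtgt

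The promoter of Zfp957 holds 4 CG, that of Zfp735 holds 2, that of Zfp616 holds 6 and that of Zfp207 holds 17. The ratio of CG observed to CG expected from the base composition was 0.242, 0.164 and 0.471 for the first 3 and 0.852 for Zfp207. Over the 170 members with a promoter in the table the median ratio was 0.716, against 0.782 over 8529 genes past the same floor. It was 0.638 in 83 members with a KRAB box and 0.757 in 86 without. Ratios below 0.5 were found for 37 members (21.8%) and for 17.6% of the 8529 genes.

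By the same pattern search on translated GENCODE M21 coding sequences, 91 of 204 members (44.6%) carried a KRAB box and 113 did not. The remaining member, Zfp939, is annotated as a pseudogene. Below the floor the KRAB share was 94 of 122 genes (77.0%). Members had a median of 9.5 fingers, 12 with a KRAB box and 7 without, and the most was 40, in Zfp142. The finger pattern was not matched in 6 members, namely Zfp36, Zfp185, Zfp330, Zfp703, Zfp839 and Zfp957. Of the members, 19 share at least 10% of their 50-base words with a transcript of another gene. The share was 100% for Zfp708, 94.4% for Zfp82 and 52.3% for Zfp932, and the values of these 19 are uncertain.

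As a set these were genes of low abundance. In ES cells the median member had 5.33 FPKM, and it had 5.94 FPKM in day 6 PGCLCs, 5.73 FPKM after their reaggregation and 5.45 FPKM in E12.5 PGCs. It had 6.72 and 7.41 FPKM in in vitro and in vivo secondary follicle oocytes, and 3.46 and 4.33 FPKM in in vitro and in vivo MII oocytes. Over all 11214 genes past the floor, the medians lay between 6.50 FPKM, in in vivo MII oocytes, and 10.6 FPKM. Below 1 FPKM were 50 members in in vitro and 66 in in vivo MII oocytes (24.4% and 32.2%, beside 18.2% and 27.4% of all genes past the floor), while the highest member reached 420 and 922 FPKM there. In the other 6 groups between 14 and 22 members were below 1 FPKM (6.83% to 10.7%, beside 12.3% to 14.8% of all genes). The group with the highest value was in vivo MII oocytes for 62 members (30.2%), the same share as over all genes (30.2%). Secondary follicle oocytes, in vitro for 33 and in vivo for 34, held the highest value for 16.1% and 16.6% of members, against 11.8% and 9.24% of all genes, and ES cells for 11.2%, against 18.3%. These shares rest on FPKM as deposited and were not counted under another scaling.

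**Figure D1:**
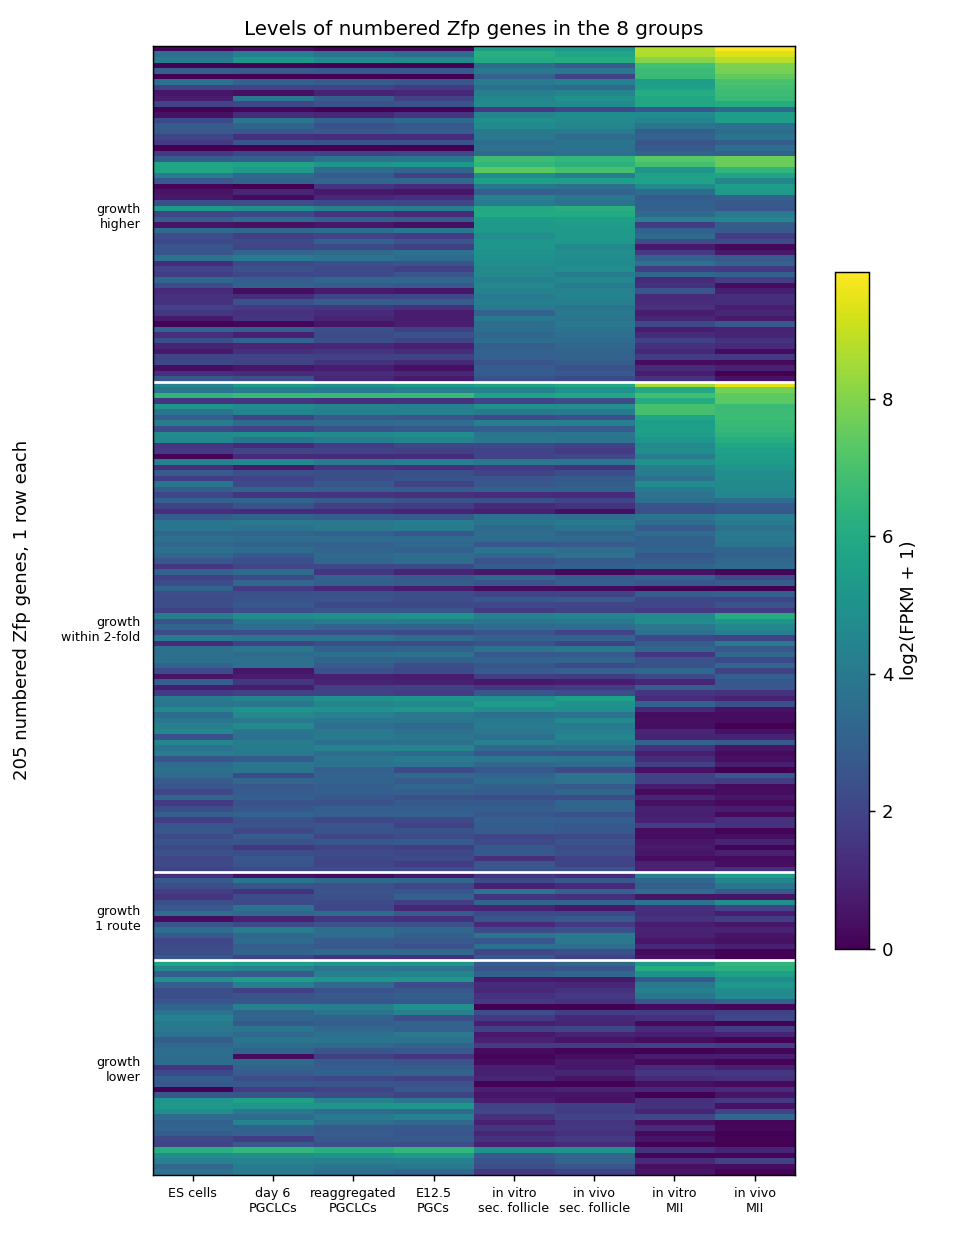
Levels of the 205 numbered Zfp genes, as log2(FPKM + 1), with 1 row per gene and 1 column per group. Rows are ordered by whether the gene was at least 2-fold higher, within 2-fold, called in 1 route only or at least 2-fold lower in secondary follicle oocytes than in the germ cells before them; the MII columns hold both the brightest rows, up to 922 FPKM, and 50 and 66 rows below 1 FPKM.

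The genes with the highest levels changed with the stage. Zfp207, a kinetochore and spindle protein, led from ES cells to PGCs, with 85.4 FPKM in ES cells, 98.1 FPKM in day 6 PGCLCs, 97.4 FPKM after reaggregation and 102 FPKM in E12.5 PGCs. Zfp296, known in mouse pluripotent cells as a reprogramming factor, led in secondary follicle oocytes with 165 FPKM in vitro and 122 FPKM in vivo. Zfp957 led in MII oocytes with 420 FPKM in vitro and 922 FPKM in vivo. Zfp513 and Zfp664 followed at MII, Zfp513 with 408 and 646 FPKM and Zfp664 with 358 and 679 FPKM in in vitro and in vivo MII oocytes. These levels are per length of transcript, and in pooled cells fewer cells of a type and less RNA per cell cannot be told apart.

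From here on, a ratio is the difference of log2(FPKM + 1), and a gene is called higher or lower where it is at least 2-fold (a log2 ratio of 1). From ES cells to PGCLCs few members passed that limit, some of them by far. In day 6 PGCLCs, 16 members were higher (7.80%, beside 10.1% of all genes past the floor) and 8 were lower (3.90%, beside 11.9%) than in ES cells. Zfp750, which acts in epidermal differentiation, had 14.3 FPKM in day 6 PGCLCs and 0.676 FPKM in ES cells, a log2 ratio of 3.19. Zfp521, a regulator of progenitor cells, had 2.38 FPKM in day 6 PGCLCs and 0.0289 FPKM in ES cells. Zfp422 had 7.90 FPKM, against 1.83 FPKM, and Zfp821 had 13.6 FPKM, against 3.67 FPKM, in the same order. Zfp185 was the most reduced, with 0.233 FPKM in day 6 PGCLCs and 10.2 FPKM in ES cells (log2 ratio -3.19). Zfp809, which silences murine leukaemia type retroviruses in mouse ES cells, had 8.39 FPKM in day 6 PGCLCs and 18.8 FPKM in ES cells, a log2 ratio of -1.08. Zfp672 had 0.462 FPKM in day 6 PGCLCs and 3.79 FPKM in ES cells, and the KRAB gene Zfp229 had 3.52 FPKM, against 13.1 FPKM. Zfp59, also with a KRAB box and with 50.1% of its words shared with Gm7452, had 2.24 FPKM in day 6 PGCLCs and 7.69 FPKM in ES cells. Zfp819, linked to retroelement control in mouse ES cells, lay the other way, with 12.3 FPKM in day 6 PGCLCs and 5.38 FPKM in ES cells.

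On reaggregation with gonadal somatic cells, 8 members were higher (3.90%, beside 4.98%) and 7 lower (3.41%, beside 5.64%) than in day 6 PGCLCs. After scaling the columns to equal sums these counts were 15 and 4, beside 8.55% and 3.78% of all genes. Zfp296 had 9.86 FPKM in reaggregated PGCLCs and 39.4 FPKM in day 6 PGCLCs (log2 ratio -1.90), the lowest ratio of the comparison. Zfp459, Zfp819 and Zfp954 came next, with 1.90, 3.45 and 1.22 FPKM in reaggregated PGCLCs and 9.56, 12.3 and 4.18 FPKM in day 6 PGCLCs. Zfp672 had 4.41 FPKM in reaggregated PGCLCs and 0.462 FPKM in day 6 PGCLCs (1.89), the highest ratio, and Zfp185 had 2.63 FPKM, against 0.233 FPKM (1.56). Both were among the lowest ratios of day 6 PGCLCs over ES cells, which share the day 6 values, and ES cells had 3.79 FPKM of Zfp672 and 10.2 FPKM of Zfp185. Zfp318, a nuclear protein needed for IgD in mouse B cells, had 18.6 FPKM in reaggregated PGCLCs and 5.64 FPKM in day 6 PGCLCs (1.56). Zfp541, needed by mouse spermatocytes to leave pachytene, had 1.85 FPKM in reaggregated PGCLCs and 0.0180 FPKM in day 6 PGCLCs (1.49).

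Reaggregated PGCLCs and E12.5 PGCs were close to each other. Of the 205 members, 203 were within 2-fold, 2 were higher in reaggregated PGCLCs (beside 1.44% of all genes) and 0 were lower (beside 0.758%). The 2 were Zfp36, which promotes decay of AU-rich messenger RNA, with 9.58 FPKM in reaggregated PGCLCs and 3.73 FPKM in E12.5 PGCs (1.16), and Zfp819 with 3.45 and 1.08 FPKM (1.10). At the other end, Zfp462, a large zinc finger protein of heterochromatin, had 17.6 FPKM in reaggregated PGCLCs and 29.9 FPKM in E12.5 PGCs (-0.74), within the 2-fold limit. Also within it were Zfp750 with a ratio of 0.94 and Zfp277 with 0.91, and at the low end Zfp521 with -0.71, Zfp800 with -0.58 and Zfp516 with -0.51.

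The growth step, from germ cell to oocyte of the secondary follicle, can be read once in culture and once in the animal with no library in common. In culture 64 members were higher (31.2%, beside 28.1%) and 46 lower (22.4%, beside 28.1%) in secondary follicle oocytes than in reaggregated PGCLCs. In the animal 66 were higher (32.2%, beside 27.2%) and 40 lower (19.5%, beside 27.6%) in secondary follicle oocytes than in E12.5 PGCs. With equal column sums the counts were 51 and 59 in culture and 56 and 51 in the animal, so that lower calls outnumbered higher ones in culture and the excess of higher calls was smaller in the animal. Over all genes the shares were then 23.8% and 36.0% in culture and 23.4% and 35.0% in the animal. The balance also depended on the floor. With a floor of 1 FPKM, which 301 Zfp genes passed, 67 were higher and 71 lower in culture (beside 25.2% and 26.4% of all genes). In the animal 73 were then higher and 60 lower (beside 24.3% and 25.9%). In both routes at once, 61 members were higher (29.8%, beside 24.8% of all genes), 39 were lower (19.0%, beside 24.4%), 89 were within 2-fold and 16 were called in 1 route only; 0 were called in opposite directions. Across the 205 genes, which are not independent replicates, the log2 ratios of culture and animal had a Pearson correlation of 0.970, equal to the 0.970 over all genes past the floor. Under each of 4 scalings (values as deposited, quantile normalization, median centring and equal sums), 46 of the 61 and 36 of the 39 kept their call in both routes. With pseudocounts of 0.1 and 5 added to these settings, 38 and 14 did, and the lower calls of Zfp281, Zfp516, Zfp521 and Zfp809 were among those lost.

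**Figure D2:**
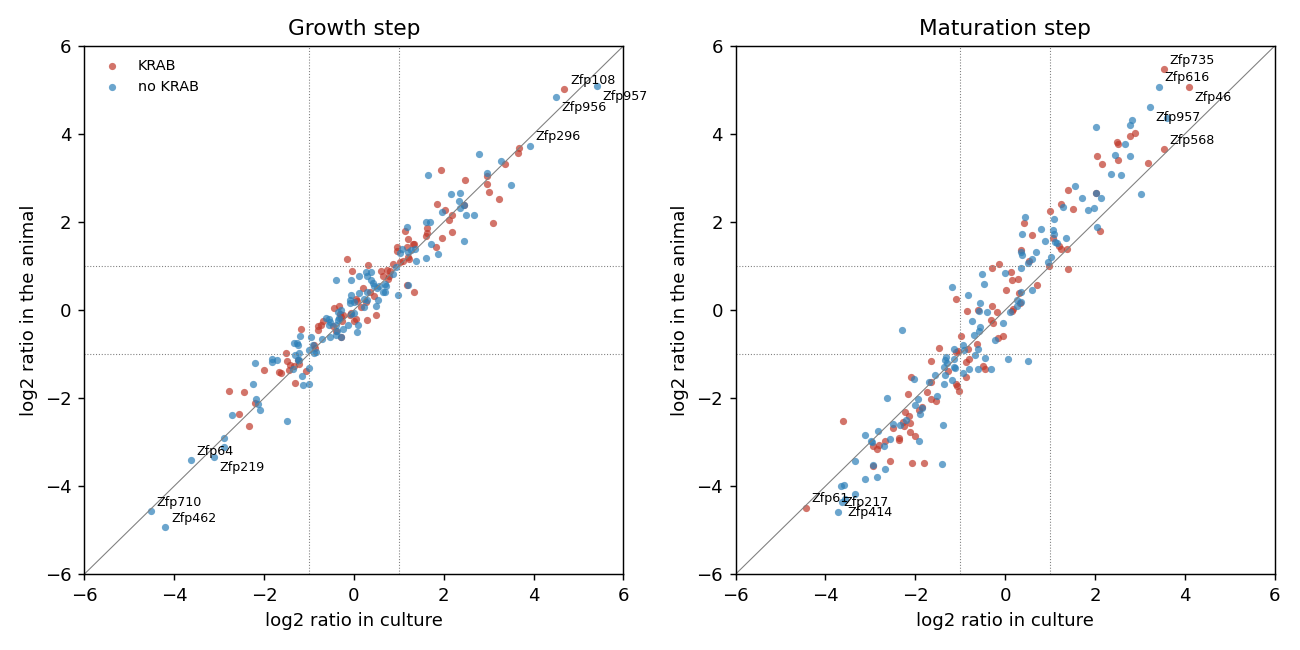
Log2 ratios of the growth step (left, secondary follicle oocytes over the germ cells before them) and of the maturation step (right, MII over secondary follicle oocytes), in culture on the horizontal axis and in the animal on the vertical axis, with 1 point per gene with a coding sequence, red with a KRAB box and blue without. Points follow the diagonal in both panels (r = 0.970 and 0.962 over 205 genes), and dotted lines mark 2-fold.

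The genes with the highest growth ratios were low before and abundant after. Zfp957 (chr14:79212355-79247369, minus strand, GRCm38) had 44.0 and 36.6 FPKM in in vitro and in vivo secondary follicle oocytes, against 0.0549 FPKM in reaggregated PGCLCs and 0.0969 FPKM in E12.5 PGCs, with log2 ratios of 5.41 and 5.10. Zfp108 (chr7:24254794-24262445, plus strand), a KRAB protein with 12 fingers, had 38.5 and 42.3 FPKM in the same oocytes, against 0.534 and 0.339 FPKM (4.69 and 5.02). Zfp956 (chr6:47953390-47965300, plus strand) had 64.1 and 64.5 FPKM, against 1.86 and 1.27 FPKM (4.51 and 4.85). In in vitro and in vivo MII oocytes Zfp108 had 2.25 and 6.55 FPKM, between its levels in germ cells and in secondary follicle oocytes. Zfp296 stood at 165 and 122 FPKM in in vitro and in vivo secondary follicle oocytes, against 9.86 and 8.24 FPKM in reaggregated PGCLCs and E12.5 PGCs (3.93 and 3.73). It thus had high values at both ends, in ES cells (56.5 FPKM) and in growing oocytes, and a low between them. Zfp212, a KRAB gene, had 107 and 90.7 FPKM in in vitro and in vivo secondary follicle oocytes, against at most 13.4 FPKM in the 4 groups before. Zfp703, a partner of Groucho corepressors, had 18.0 and 21.3 FPKM in those oocytes, against 0.969 and 1.13 FPKM.

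Only 9 members (4.39%, beside 8.60% of all genes) were below 1 FPKM in ES cells, both PGCLC groups and PGCs and so reached 1 FPKM in oocytes alone. They were Zfp92, Zfp108, Zfp174, Zfp316, Zfp608, Zfp616, Zfp618, Zfp735 and Zfp957. Zfp735 had 7.64 and 2.94 FPKM in in vitro and in vivo secondary follicle oocytes and 99.0 and 173 FPKM in in vitro and in vivo MII oocytes, against at most 0.0164 FPKM earlier. Zfp616, its neighbour on chromosome 11, had 10.3 and 6.17 FPKM and then 119 and 241 FPKM in the same groups, against at most 0.0252 FPKM earlier. Their promoters are among those printed above. Of the 8 promoters known for the 9 genes the median CG ratio was 0.491, and over 669 genes of all kinds with this pattern it was 0.369.

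Lower at growth were several genes that were among the most abundant members before. Zfp462 (chr4:54945048-55083563, plus strand) had 0.0157 and 0.0160 FPKM in in vitro and in vivo secondary follicle oocytes, against 17.6 FPKM in reaggregated PGCLCs and 29.9 FPKM in E12.5 PGCs (-4.19 and -4.93). Zfp710 (chr7:80024814-80094173, plus strand) had 0.584 and 0.540 FPKM, against 35.2 and 35.4 FPKM (-4.52 and -4.56). Zfp64 had 0.729 and 0.382 FPKM, against 20.3 and 13.8 FPKM (-3.63 and -3.42). These 3 were named for their low ratios. Zfp219 followed with 3.06 and 2.58 FPKM in in vitro and in vivo secondary follicle oocytes, against 34.2 and 35.0 FPKM. Zfp281, a mouse pluripotency regulator that binds near Nanog, had 4.72 and 8.33 FPKM, against 19.2 FPKM in both germ cell groups. Zfp326, which links splicing to transcription, had 1.64 and 3.06 FPKM, against 16.3 and 20.1 FPKM. The developmental regulators Zfp516 and Zfp521, known from fat cell progenitors, were lower too, Zfp516 with 3.97 and 2.45 FPKM against 12.9 and 18.9 FPKM and Zfp521 with 0.838 and 1.01 FPKM against 3.02 and 5.59 FPKM. Zfp809 had 2.10 and 1.20 FPKM in in vitro and in vivo secondary follicle oocytes, against 7.27 and 4.22 FPKM. Zfp445, which keeps imprints together with ZFP57, stayed within 2-fold, with 7.07 and 7.70 FPKM against 12.9 and 10.1 FPKM, and the transcription factor Zfp143 likewise, with 12.3 and 10.6 FPKM against 8.24 and 7.24 FPKM.

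Secondary follicle oocytes made in culture and in the animal held the members at nearly the same levels. Of 205, 203 were within 2-fold, 1 was higher in vitro (beside 1.83% of all genes) and 1 lower (beside 0.651%). With quantile normalization the counts were 1 and 2, beside 1.92% and 0.990%. The higher one was Zfp735, with 7.64 FPKM in vitro and 2.94 FPKM in vivo (1.13). The lower one was Zfp869, a KRAB gene, with 5.27 FPKM in vitro and 14.1 FPKM in vivo (-1.27). Zfp644, a partner of the G9a histone methyltransferase complex, came close to the limit with 11.2 FPKM in vitro and 22.1 FPKM in vivo (-0.92). Zfp111 and Zfp281 followed at -0.88 and -0.71, and at the high end Zfp282 had 0.80, Zfp940 had 0.71 and Zfp616 had 0.65.

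The maturation step, from secondary follicle to MII, covers oocyte growth, the halt of transcription in the grown oocyte and the selective loss of stored messages. In culture 48 members were higher (23.4%, beside 28.7%) and 82 lower (beside 32.6%) in MII than in secondary follicle oocytes. In the animal 64 were higher (31.2%, beside 32.7%) and 88 lower (42.9%, beside 37.7%). The median log2 ratio of members was -0.56 in culture and -0.48 in the animal, against -0.10 and -0.14 over all genes past the floor. These counts and medians depend on the scale, since the columns sum to 616260 and 975410 FPKM in in vitro and in vivo MII oocytes and to 349450 and 349770 FPKM in in vitro and in vivo secondary follicle oocytes. With equal sums there were 30 higher and 105 lower in culture (beside 18.3% and 44.2% of all genes) and 30 and 110 in the animal (beside 18.9% and 50.8%). With median centring there were 64 higher and 57 lower in culture (beside 37.6% and 22.6%) and 89 and 52 in the animal (beside 45.3% and 25.0%). The medians were then 0.03 and 0.50, so the balance of higher and lower turns with the scaling, for members as for all genes.

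In both routes at once, 47 members were higher (22.9%, beside 26.7%), 75 lower (36.6%, beside 30.4%), 45 within 2-fold and 38 called in 1 route only, and again 0 were called in opposite directions. The ratios of culture and animal had a Pearson correlation of 0.962, beside 0.942 over all genes. Under all 4 scalings, 25 of the 47 and 49 of the 75 kept their call in both routes, and 23 and 40 did with both pseudocounts added. The growth and maturation steps share the secondary follicle values, so the members of each are given apart and no overlap between them is counted.

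Among the 25, Zfp46 and Zfp735, both KRAB genes, and Zfp616 and Zfp957 had the highest ratios in the animal. Zfp46 had 66.3 and 163 FPKM in in vitro and in vivo MII oocytes, against 2.97 and 3.89 FPKM in the secondary follicle oocytes of the same routes (4.08 and 5.07), and at most 1.88 FPKM before. Zfp654 had 54.3 and 108 FPKM at MII, against 3.54 and 4.30 FPKM (3.61 and 4.37). Zfp568, which in mouse embryos represses a placental transcript of the imprinted Igf2 gene and whose finger is printed above, had 67.9 and 76.1 FPKM in in vitro and in vivo MII oocytes, against 4.92 and 5.13 FPKM (3.54 and 3.65). Both MII groups of Zfp568 also lay above ES cells, which had 22.8 FPKM. Zfp708, which recognises a retroelement family in mouse, had 28.6 and 49.1 FPKM at MII, against 2.99 and 2.08 FPKM, but its transcript cannot be told from that of Gm28557. Zfp423, a regulator of preadipocytes, had 19.3 and 46.2 FPKM, against 1.89 and 1.38 FPKM. Zfp36 had 14.8 and 37.3 FPKM, against 1.31 and 1.06 FPKM, and Zfp106, an RNA-binding protein of motor neurons and muscle, 42.3 and 87.1 FPKM, against 6.30 and 9.55 FPKM. Zfp91, a ubiquitin ligase, had 122 and 107 FPKM, against 14.1 and 16.3 FPKM. Zfp655 and Zfp207 were also called higher in both routes, Zfp655 with 259 and 425 FPKM against 63.2 and 66.7 FPKM and Zfp207 with 115 and 169 FPKM against 51.7 and 58.2 FPKM, but neither call held under all 4 scalings.

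By the share of its summed level, averaging matched groups, 13 members (6.34%, beside 7.08% of all genes) had at least 80% in MII oocytes and 1 (0.488%, beside 2.41%), Zfp108 with 87.8%, had it in secondary follicle oocytes. These shares are of FPKM as deposited, and the MII columns have the largest sums; with equal sums, a scaling added here after seeing the data, 4 members had 80% in MII oocytes (beside 2.26%) and 4 in secondary follicle oocytes (beside 3.5%). The highest shares were 96.2% for Zfp735, 95.6% for Zfp616, 94.3% for Zfp957, 92.9% for Zfp46 and 89.1% for Zfp423, all in MII oocytes, followed by Zfp60 and Zfp560 with 83.6% each. The first 4 of these were the ones left with equal sums. No other stage held 80% of any member at either scale.

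**Figure D3:**
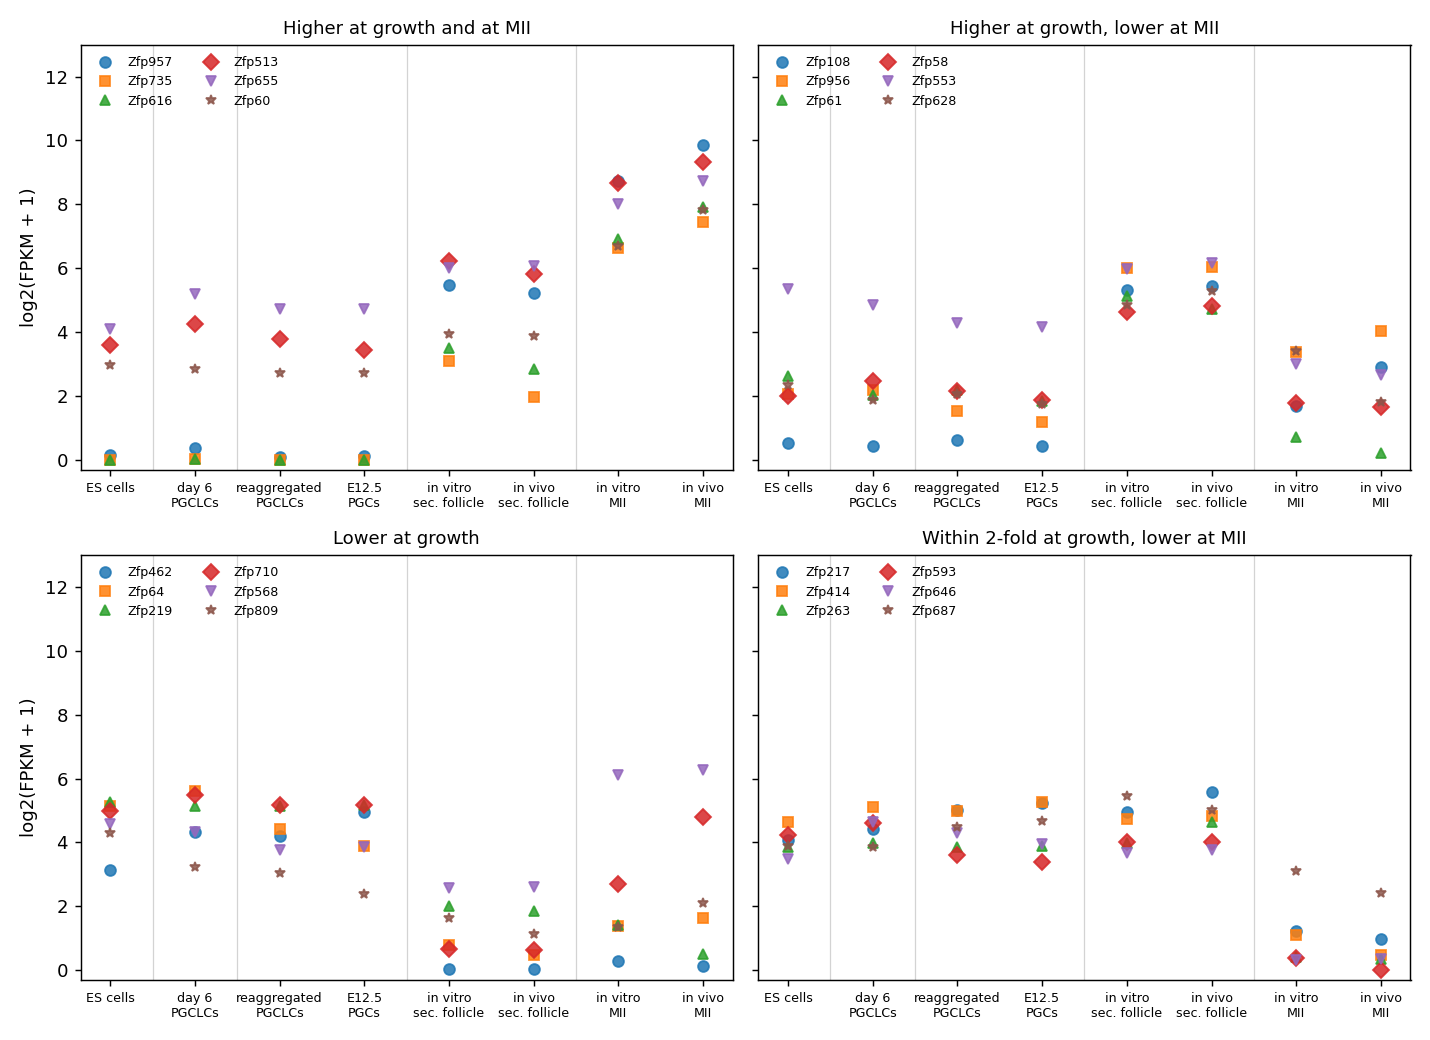
Levels of 24 members in the 8 groups as log2(FPKM + 1), 6 in each panel, chosen after their values were seen to show the kinds of change at growth and at MII. Each symbol is the 1 value of a group; in vitro and in vivo groups of a stage stand side by side, and Zfp957 stands at 0.0549 FPKM in reaggregated PGCLCs and at 420 and 922 FPKM in in vitro and in vivo MII oocytes.

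The genes lower at MII had differed in their course before. Zfp217, a chromatin factor linked in mouse ES cells to RNA methylation, had 1.35 and 0.98 FPKM in in vitro and in vivo MII oocytes, against 30.0 and 46.3 FPKM in secondary follicle oocytes (-3.72 and -4.58), after 15.7 to 36.5 FPKM in the 4 earlier groups. Zfp61, a KRAB gene, had 0.631 and 0.172 FPKM, against 34.1 and 25.3 FPKM (-4.43 and -4.49). Zfp414, with 25% of its words shared with Gm20507, had 1.16 and 0.382 FPKM, against 25.7 and 27.3 FPKM, and Zfp263 had 0.335 and 0.269 FPKM, against 14.8 and 24.0 FPKM. In each of the 4 genes both MII values lay below every other group. Zfp593 had 0.290 and 0.0107 FPKM at MII, against 15.2 and 15.0 FPKM. Zfp622 had 0.117 and 0.136 FPKM, against 6.25 and 8.63 FPKM, and Zfp428, once the second most abundant member with 70.6 FPKM in reaggregated PGCLCs and 90.0 FPKM in E12.5 PGCs, had 1.72 and 1.05 FPKM, against 31.4 and 31.1 FPKM. Zfp932, a KRAB protein that binds endogenous retroviruses in mouse ES cells, had 2.73 and 1.69 FPKM, against 10.7 and 9.99 FPKM, with 52.3% of its words shared with Gm15446. Zfp644 had 0.911 and 0.897 FPKM, against 11.2 and 22.1 FPKM. Zfp335, a subunit of a histone H3 methyltransferase complex, had 2.69 and 0.769 FPKM, against 8.63 and 9.75 FPKM, a call that did not hold under all 4 scalings.

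Between MII oocytes from culture and from the animal fewer members were within 2-fold than in the earlier pairs. In vitro, 7 members were higher (3.41%, beside 15%) and 26 lower (12.7%, beside 11.2%) than in vivo, and 172 were within 2-fold. The split rested on the scale, with 11 and 4 under equal sums and 3 and 62 under median centring, and on the pseudocount, with 33 and 33 at 0.1 and 1 and 15 at 5. Over all genes the shares were 20.6% and 1.42%, 8.54% and 25.6%, 27.0% and 13.6%, and 5.7% and 7.53%, in the same order. Calls that held under all 4 scalings were 1 higher and 4 lower. Zfp791, a KRAB gene, was the higher one, with 5.09 FPKM in vitro and 0.756 FPKM in vivo (1.79). Its call was lost with the pseudocount of 5, which left its values within 2-fold. Zfp791 had 20.3 and 18.5 FPKM in the secondary follicle oocytes of the same routes. The 4 lower were Zfp710 with 5.46 FPKM in vitro and 26.5 FPKM in vivo (-2.09), Zfp131 with 61.1 and 220 FPKM (-1.83), Zfp939 with 10.1 and 38.2 FPKM (-1.83) and Zfp346, which binds double-stranded RNA, with 1.91 and 8.85 FPKM (-1.76). From the secondary follicle to MII, Zfp346 had a log2 ratio of -1.19 in culture and of 0.53, within 2-fold, in the animal. Zfp628 was higher in vitro with 9.71 FPKM, against 2.48 FPKM in vivo (1.62), and missed the limit under quantile normalization with 0.97. Zfp672 was higher in vitro with 9.08 FPKM, against 2.83 FPKM in vivo (1.40), and Zfp592 with 50.3 FPKM, against 21.1 FPKM (1.22). Zfp296 had 33.0 FPKM in vitro and 89.0 FPKM in vivo (-1.40).

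**Figure D4:**
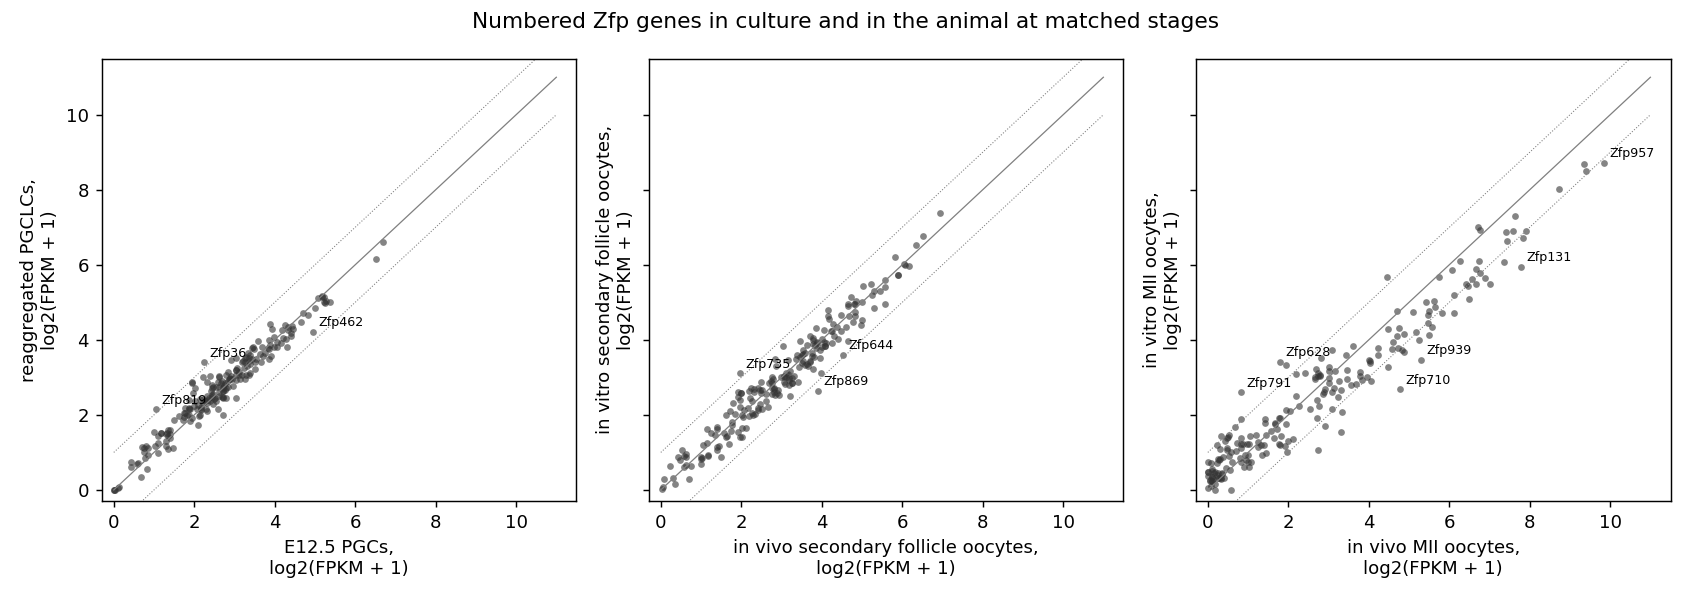
Levels of the 205 members as log2(FPKM + 1) in culture (vertical axis) against the animal (horizontal axis) for reaggregated PGCLCs and E12.5 PGCs, secondary follicle oocytes and MII oocytes, with 1 point per gene. The line marks equal values and dotted lines 2-fold; 203, 203 and 172 of 205 points lie within them from left to right.

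Members with a KRAB box were the less abundant class in every group, with medians from 2.43 FPKM in in vitro MII oocytes to 5.82 FPKM in in vivo secondary follicle oocytes. Members without one had medians from 5.14 to 9.55 FPKM in the same groups. At growth, 33 of the 91 KRAB members were higher and 18 lower in culture, and 36 higher and 16 lower in the animal. Of the 113 without, 30 were higher and 28 lower in culture and 29 and 24 in the animal. Of all genes past the floor, 28.1% were higher and 28.1% lower in culture, and 27.2% and 27.6% in the animal. The median growth ratios of KRAB members were 0.31 in culture and 0.42 in the animal, against -0.00 and 0.16 for the others, and with equal sums they were -0.03 and 0.14, against -0.35 and -0.15. The floor left out 94 KRAB genes, and KRAB members such as Zfp108 and Zfp94 passed it only in oocytes. The classes were not counted at another floor, so their difference at growth cannot be told apart from that choice. At maturation the classes had like medians, -0.49 and -0.59 with KRAB and -0.58 and -0.48 without, in culture and in the animal. Those 4 medians were above 0 under median centring.

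The genes for the partners of KRAB proteins, a list drawn up from textbook knowledge, were lower or within 2-fold at growth. Of 28 genes for TRIM28, its partners and the heterochromatin machinery, 0 were higher and 15 lower in secondary follicle oocytes than in reaggregated PGCLCs, and 0 higher and 13 lower than in E12.5 PGCs in the animal, with median log2 ratios of -1.10 and -0.96. Over all genes past the floor, 28.1% were higher and 28.1% lower in culture, and 27.2% and 27.6% in the animal. The list itself has no floor, and Sumo2 had at most 0.12 FPKM. Under the other 3 scalings the lower counts were 15 to 19 in culture (beside 28.0% to 36.0%) and 14 to 17 in the animal (beside 28.4% to 35.0%). Higher was 1 gene, in culture under median centring. Trim28 itself had 163 and 148 FPKM in in vitro and in vivo secondary follicle oocytes, against 341 FPKM in reaggregated PGCLCs and 374 FPKM in E12.5 PGCs. The histone methyltransferase Suv39h1 had 0.231 and 0.568 FPKM, against 43.7 and 54.2 FPKM, and the heterochromatin protein gene Cbx5 4.98 and 5.52 FPKM, against 30.4 and 28.1 FPKM. Setdb1, the methyltransferase that TRIM28 recruits, had 55.4 and 53.8 FPKM, against 27.2 and 33.2 FPKM, within 2-fold in both routes. At maturation 11 were higher and 6 lower in culture (beside 28.7% and 32.6% of all genes) and 12 higher and 7 lower in the animal (beside 32.7% and 37.7%), with medians of 0.53 and 0.63. With equal sums the counts were 8 and 8 in culture (beside 18.3% and 44.2%) and 6 and 11 in the animal (beside 18.9% and 50.8%), where the balance turned, with medians of -0.00 and -0.58. With median centring they were 14 and 3 (beside 37.6% and 22.6%) and 17 and 5 (beside 45.3% and 25.0%), with medians of 1.12 and 1.61. Smarcad1, a chromatin remodeller, had 59.4 and 102 FPKM in in vitro and in vivo MII oocytes, against 3.28 and 3.96 FPKM in secondary follicle oocytes.

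Zfp genes lie in runs along the chromosomes, and 54 of the 205 members (26.3%) were on chromosome 7. A run was taken as at least 5 such genes with gaps of at most 500 kb, on GRCm38. The run chr7:24081924-25227507 held 14 genes, 10 of them members. Of the 10, 6 were higher at growth in both routes (beside 24.8% of all genes) and 2 lower (beside 24.4%). At maturation 8 were lower in both routes (beside 30.4%). Among all runs this one had the most members higher at growth and the most lower at maturation, and it was not chosen beforehand. Zfp111, Zfp109, Zfp108, Zfp61 and Zfp94, 5 members of this run that all carry KRAB boxes, were higher at growth under all 4 scalings. The same 5 were lower at maturation under all 4, in a step that shares the secondary follicle values. Zfp93, which lies between Zfp108 and Zfp61, stayed below the floor. It had 0.581 and 0.537 FPKM in reaggregated PGCLCs and E12.5 PGCs, 1.61 and 2.07 FPKM in in vitro and in vivo secondary follicle oocytes, and 1.40 and 2.52 FPKM in in vitro and in vivo MII oocytes. Zfp109 had 15.2 and 20.1 FPKM in in vitro and in vivo secondary follicle oocytes, against 2.94 FPKM in reaggregated PGCLCs and 3.34 FPKM in E12.5 PGCs. Zfp94 had 14.8 and 12.8 FPKM, against 1.02 and 0.674 FPKM. Within the same run Zfp235 had its highest levels, 17.5 and 34.8 FPKM, in in vitro and in vivo MII oocytes, and Zfp180 had its highest level, 8.29 FPKM, in ES cells.

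**Figure D5:**
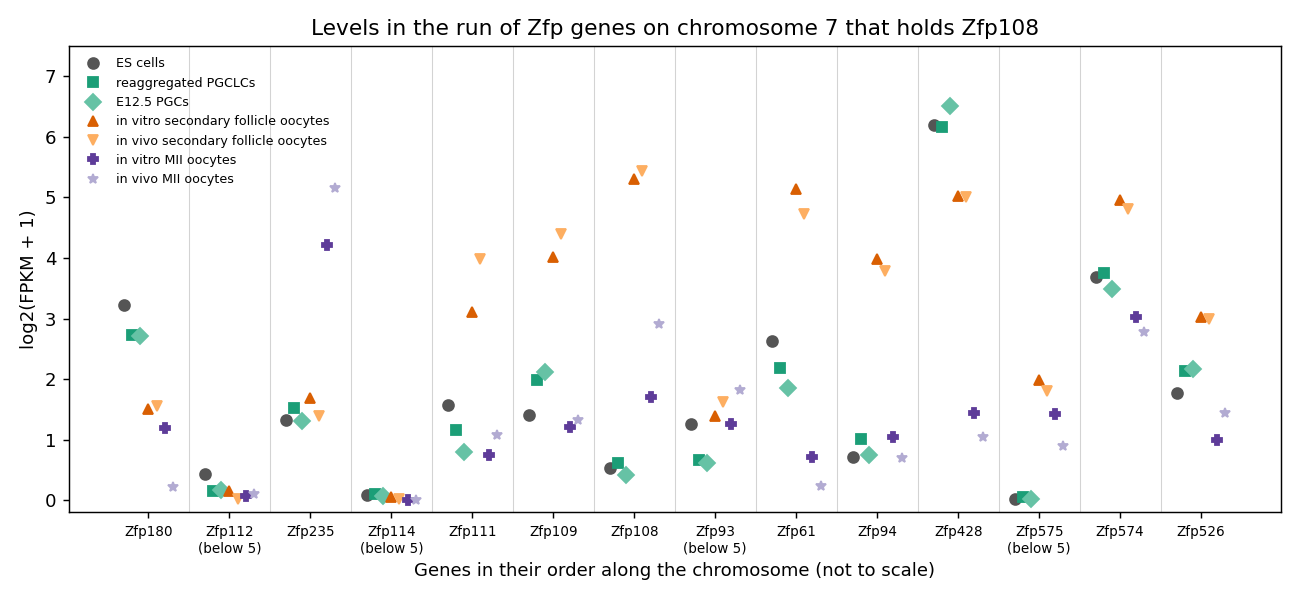
Levels as log2(FPKM + 1) of the 14 Zfp genes of the chromosome 7 run that holds Zfp108, in their order along the chromosome, with 1 symbol for each of 7 groups (day 6 PGCLCs are not drawn); 4 genes are below the 5 FPKM floor. The 2 triangles, for secondary follicle oocytes, are the highest symbols of Zfp111, Zfp109, Zfp108, Zfp61 and Zfp94, while MII oocytes are highest for Zfp235.

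In the run chr7:127233061-127885996, all 7 members of 10 genes were lower at maturation in both routes, a call shared by 36.6% of members and 30.4% of all genes. This run was picked for that count from 15 runs. Zfp646 had 0.243 and 0.264 FPKM in in vitro and in vivo MII oocytes, against 11.6 and 12.6 FPKM in secondary follicle oocytes, and Zfp553 had 7.06 and 5.33 FPKM, against 61.3 and 71.0 FPKM. The run chr6:47819266-48623227 held 7 members of 10 genes, with Zfp956, Zfp212, Zfp777 and Zfp398 higher at growth in both routes (beside 24.8% of all genes), and 5 members lower at maturation (beside 30.4%). Of the other members, Zfp282 stayed within 2-fold at maturation in both routes. Zfp212 had 156 and 197 FPKM in in vitro and in vivo MII oocytes and was called higher in the animal alone. That call did not hold with quantile normalization or equal sums. This run too was not chosen beforehand. The largest run, chr17:21008903-23599487, held 12 members of 20 genes. In both routes 1 was higher and 1 lower at growth (beside 24.8% and 24.4% of all genes), and 5 were higher and 1 lower at maturation (beside 26.7% and 30.4%). The run chr13:67038596-67827002 held 19 genes, all with KRAB boxes, of which 5 passed the floor.

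One gene of this form that is well known from the early embryo was not seen. Zfp352, a retroelement-derived gene of the mouse embryo after fertilisation, reached at most 0.0040 FPKM in any group.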

How the data were processed

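Poly(A) RNA of 23 samples in 8 groups was sequenced from directional libraries, per the labels' protocols. The authors deposited FPKM values for 22784 genes, 1 per gene and group, so samples of a group were already combined. The submitters' processing notes name Bowtie2 2.0.13, TopHat2, Cufflinks and Cuffdiff 2.2.1 and the build mm10. FPKM does not give depth, which is unknown, and a few very abundant transcripts can lower the values of all others in a column. The columns summed to between 268720 FPKM, in reaggregated PGCLCs, and 975410 FPKM, in in vivo MII oocytes. How the columns were scaled to each other was not tested.

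Values were compared as log2(FPKM + 1), with a call at 2-fold, over the 11214 genes with at least 5 FPKM in 1 group, in 9 comparisons and with no test. The call was checked by multiplying some values of 1 deposited column by known folds beyond 2-fold, which the limit must find. That check covers the call alone. Alternatives were pseudocounts of 0.1 and 5, other floors, quantile normalization, median centring and equal column sums. Positions, coding sequences and KRAB and finger matches came from GENCODE M21 (GRCm38), and promoters from RefSeq. KRAB was taken as either part of the A box, since requiring both, the rule first planned, missed evident boxes and left 52 members. Genes were named by rank (the 4 highest and 4 lowest ratios per comparison, the 5 highest levels per group, the 8 largest stage shares, those nearest the floor) and by known role. Zfp703, Zfp644, Zfp109, Zfp94, Zfp646 and Zfp553 and the other members given as examples of a class or a run were chosen after their values were seen. The members and lists were chosen with earlier results of these data known. Python 3.11.15, pandas 2.3.3, NumPy 2.4.6, SciPy 1.17.1, matplotlib 3.10.9 and Biopython 1.88 were used.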

Additional observations from a re-analysis of the deposited data

How the results depend on the processing

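No paired analysis was possible because the table holds 1 value per gene and group, and for the same reason no replicate could be left out. In the counts below, where a value moved, the cause was not tested. Shares in brackets are of all genes past the same floor at the same setting. With a pseudocount of 0.1, 26 members were higher and 13 lower in day 6 PGCLCs than in ES cells (beside 14.2% and 15.0%). Higher were 16 in reaggregated than in day 6 PGCLCs (beside 9.42%) and 4 in reaggregated PGCLCs than in E12.5 PGCs (beside 3.55%). At the same setting 5 were higher and 3 lower in in vitro than in in vivo secondary follicle oocytes (beside 4.04% and 1.64%), and 33 higher in in vitro than in in vivo MII oocytes (beside 27.0%). With a pseudocount of 5 these pairs had 3 higher and 2 lower, 1 higher and 4 lower, 0 higher, 0 higher and 0 lower, and 1 higher and 15 lower, in the same order. At growth 19 were then lower in culture and 16 in the animal (beside 18.1% and 17.6%), and at maturation 45 and 48 (beside 22.3% and 27.4%). A floor of 1 FPKM, or none, gave 13 lower in day 6 PGCLCs than in ES cells (beside 12.0% and 7.51%). Either floor gave 67 higher (beside 25.2% and 15.8%) and 71 lower (beside 26.4% and 16.5%) at growth in culture. Quantile normalization gave 1 higher in reaggregated PGCLCs than in E12.5 PGCs (beside 1.94%) and 2 lower in in vitro than in in vivo secondary follicle oocytes (beside 0.990%). It gave 4 higher and 14 lower in in vitro than in in vivo MII oocytes (beside 10.5% and 4.30%). Median centring gave 52 lower at maturation in the animal (beside 25.0%), and 3 higher and 62 lower between MII oocytes (beside 8.54% and 25.6%). Equal sums gave 15 higher and 4 lower in reaggregated than in day 6 PGCLCs (beside 8.55% and 3.78%), and 4 higher in reaggregated PGCLCs than in E12.5 PGCs (beside 2.02%). At maturation 30 were higher in each route (beside 18.3% in culture and 18.9% in the animal). Between MII oocytes 11 were higher and 4 lower (beside 20.6% and 1.42%). The median of all genes moved at maturation to -0.50 in culture and -0.74 in the animal with equal sums, and to 0.51 and 0.89 with centring. Among the members named by rank or by known role, 2 changed sign from secondary follicle to MII in the animal. Zfp212 had 1.11, but -0.48 with quantile normalization and -0.36 with equal sums, and Zfp598 had 1.25, but -0.30 and -0.22. Changes of sign in the remaining members were not counted.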
